A study of Gallus gallus with 8 samples.

Results

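The genes of the Wnt pathway were examined in the chick retina after 24 h of positive lens wear. They comprised Wnt ligands, Frizzled receptors, co-receptors, secreted antagonists, the ligand carrier WLS, and the main cytoplasmic and nuclear transducers. Members were picked by a rule on the gene symbol of the platform annotation that uses no measured value, although earlier results of these data were known when the list was drawn up. The choice gave 48 genes with 97 probe sets, of 13009 genes and 38439 probe sets tested, and all 97 were tested without a filter on low values. The listed genes DVL3, GSK3B and PORCN had no probe set under that name in the annotation used here.

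Wnt proteins are secreted lipid-modified ligands that bind Frizzled receptors and the co-receptors LRP5 and LRP6 on the cell surface. Without a ligand, a complex built on AXIN and APC marks beta-catenin (CTNNB1) for degradation, and with a ligand beta-catenin accumulates and activates target genes together with TCF and LEF factors. Secreted proteins of the SFRP, DKK and WIF families limit the signal outside the cell, and in the embryonic eye the pathway is known for its part in patterning the retina, the pigment epithelium and the ciliary margin.

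Plus lens chicks wore lenses of +6.9 D on both eyes for 24 h, fitted at the age of 9 days, and control chicks of the same age wore none. A positive lens brings the image into focus in front of the retina, which is known to slow the growth of the eye in chicks, and the array experiment asked which retinal mRNA levels differ at that time. Both groups were White Leghorn chicks labelled as male, with 4 chicks each, both retinas of a chick pooled, and 1 Affymetrix Chicken Genome array per chick.

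All values are log2 of the deposited GC-RMA intensities, and differences are plus lens minus control. The 8 arrays were alike in their overall signal, with median intensities of 10.8 to 10.99 and 53.4% to 53.8% of probe sets below an intensity of 16 (log2 4). The arrays of plus lens chicks were run on one fluidics station and scanned first, and those of control chicks on another station and scanned after them, so station, scan order and lens wear cannot be told apart. The W-linked gene HINTW, carried only by female birds, lay at log2 13.7 to 14.1 in 6 arrays and at 5.39 and 4.35 in control replicates 2 and 4, although the labels give all chicks as male. Many differences are therefore also given with a term for these 2 arrays, called the W term, which gives the same difference as leaving them out. Differences with the W term thus rest on control replicates 1 and 3 alone on the control side. All 11 measured marker genes of the retina lay at an intensity of 16 or more, with summed intensities of 73107 to 88216 in plus lens and 86903 to 92291 in control arrays. Differences of these markers ran both ways, from −1.31 (GNAT2) to 0.40 (GNAT1, at a mean of only 4.20). Of the 11, 2 had an unadjusted limma p under 0.05, GNAT2 and GAD1 (0.096), where 6.44% of all genes did. Of markers of tissues next to the retina, 1 of 8 measured for the lens, 1 of 9 for sclera and choroid, 4 of 9 for the pigment epithelium and 4 of 6 for the ciliary margin and ciliary body reached 16. Summed intensities of the ciliary markers were 670 to 894 in plus lens and 686 to 885 in control arrays. Those of the pigment epithelium markers were 724 to 1056 in plus lens and 820 to 1821 in control arrays, highest in control replicate 4. Of these 9 markers, 2 had an unadjusted limma p under 0.05, TYRP1 (−1.51, at a mean of 3.18) and OCA2 (0.42).

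No gene of the Wnt pathway passed the threshold of an adjusted p under 0.06 (limma, Benjamini-Hochberg over all 38439 probe sets) and a 1.5-fold change. The same held for every probe set on the array (0% called). At an unadjusted p under 0.05, 2 of the 97 members were higher in plus lens chicks and 0 were lower, where 4.53% of all probe sets passed that level (2.49% higher and 2.03% lower). The 2 were the central transducer CTNNB1 and the dimmer probe set of the receptor FZD1. The smallest adjusted p among the members was 0.834, for CTNNB1 (limma). With whole retinas as samples, fewer cells of a type and less RNA per cell cannot be told apart in any of these values.

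The members as a whole lay close to 0. Their median log2 difference was 0.0028, against 0.0016 over all probe sets, with 59 members on the higher side and 38 on the lower. After each array was centred on its median, which moved the difference of every probe set on the array by the same amount, the members' median was −0.0089. The share on the higher side was 60.8%, against 55.8% of all probe sets. Differences ranged from −0.42 (WIF1) to 0.68 (FZD1), and 1 member was at least 1.5-fold different, where 1.15% of all probe sets were. The 4 arrays of each group did not overlap for 3 members, CTNNB1 and dim probe sets of FZD5 and DVL1, all higher in plus lens chicks, where 2.86% of all probe sets had no overlap (1.77% higher and 1.10% lower).

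Many members gave little signal. An intensity of at least 16 on average over the 8 arrays was reached by 33 of 97 member probe sets (34.0%), against 46.5% of all probe sets, and these 33 belonged to 21 genes. The remaining 27 genes had all their probe sets below it, where GC-RMA values lie near background and a difference says little about mRNA. Among the 64 dim member probe sets, mean log2 values lay between 1.90 and 3.67, and the largest difference in size was 0.19 (WNT6). At or above 16, the median difference was 0.050 for the members and 0.012 for all probe sets, with 19 members higher and 14 lower.

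The width of the intervals shows which sizes of difference between the groups these arrays could bound. They were fitted over all probe sets, dim ones included, and without the W term, and lens wear cannot be told apart from station and scan order in them. Their width depends on that choice. Fitted on probe sets at or above 16 alone, the SE of CTNNB1 was 0.058 in place of 0.021, and the intervals were not counted in that fit. Several sets counted here as within 1.5-fold would not stay within it with the W term, since their differences or errors grew. That term gave 0.33 (SE 0.17) for WLS, 0.24 (SE 0.15) for the brightest WNT5A set and −0.33 (SE 0.11) for FRZB. It gave 0.059 (SE 0.22) for FZD8 and −0.11 (SE 0.21) for a bright APC set. At these errors the 95% interval of each of these sets would reach past 1.5-fold. The counts that follow were not repeated with the W term, so they describe only the fit without it. The 95% interval (limma) of 26 of the 33 brighter member probe sets lay wholly within 1.5-fold in either direction, or 78.8%, against 73.8% of all probe sets this bright. The intervals of the other 7 reached past 1.5-fold. They belonged to WNT5A (1 of its probe sets), FZD1 (both), LRP5, LRP6, WIF1 and TCF7L2. The residual SD between arrays of a group had a median of 0.171 over the members and 0.173 over all probe sets at this intensity.

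**Figure D1:**
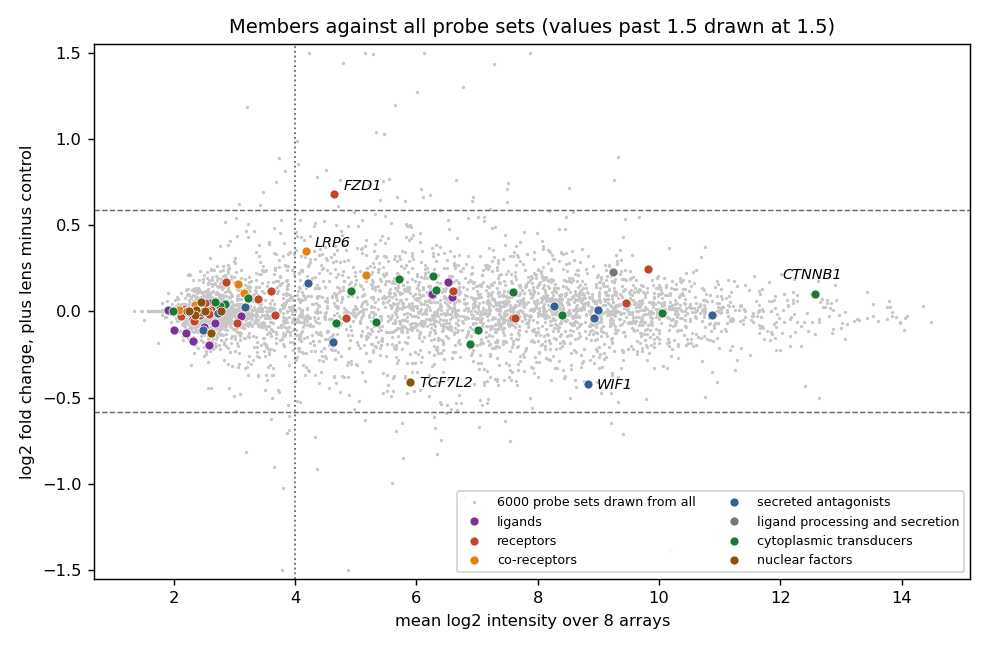
Log2 difference (plus lens minus control) against mean log2 intensity over the 8 arrays for a draw from all probe sets tested. The 97 Wnt pathway members are marked, and values past 1.5 are drawn at 1.5. The members spread around 0 between −0.42 (WIF1) and 0.68 (FZD1), and 64 of them lie below an intensity of 16.

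Of 18 genes for Wnt ligands on the array, only WNT5A gave an average intensity of 16 or more. WNT5A (chromosome 12) encodes a ligand known above all for signaling without beta-catenin, in cell polarity and migration. Probe sets bind with different strength, so the intensities of different genes or probe sets do not rank their mRNA levels. Its brightest probe set measured 6.59, 6.58, 6.59 and 6.75 in plus lens chicks, against 6.12, 6.77, 6.65 and 6.62 in control chicks. The plus lens arrays stood close together except replicate 4, control replicate 1 was the lowest of the 8, and the groups overlapped. WNT5A averaged 6.63 ± 0.085 in plus lens chicks and 6.54 ± 0.29 in control chicks (SD, n = 4 each). The difference was 0.086 (SE 0.14, 95% interval −0.25 to 0.42, adjusted p = 0.996 by limma, exact permutation p = 0.857), and 0.24 with the W term. Its other bright probe sets differed by 0.17 and 0.098 (0.43 and 0.21 with the W term), and a dim one, at a mean of 1.90, by 0.0052. Control replicate 1 was the lowest array in all 3, and without it the brightest set gave −0.053.

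The other 17 ligand genes stayed below 16 in every probe set, with mean log2 values of 1.90 to 3.12 over all dim ligand probe sets. They were WNT1, WNT2, WNT2B, WNT3, WNT3A, WNT4, WNT5B, WNT6, WNT7A, WNT7B, WNT8A, WNT8B, WNT9A, WNT10A, WNT11, WNT11B and WNT16. WNT2B, the ligand that keeps cells of the embryonic chick ciliary margin undifferentiated, lay at 2.50 on average over the 8 arrays, and WNT1, WNT3A and WNT8A, the usual activators of beta-catenin signaling, lay at 2.38 or less. The ligand probe sets were higher in plus lens chicks in 16 cases and lower in 11, with a median difference of 0.0018. WNT5B reached an unadjusted p under 0.05 only with the W term (−0.33), at a mean of 2.32, where values are near background.

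WLS (chromosome 8) encodes the membrane protein that carries Wnt ligands to the cell surface, and it had 1 probe set. It measured 9.04, 9.42, 9.67 and 9.27 in plus lens chicks, against 8.94, 9.17, 9.10 and 9.28 in control chicks. The highest value was plus lens replicate 3 and the lowest control replicate 1, but plus lens replicate 1 lay below 3 of the control arrays. WLS averaged 9.35 ± 0.26 in plus lens chicks and 9.12 ± 0.14 in control chicks (SD, n = 4 each), a difference of 0.23 (SE 0.14, 95% interval −0.11 to 0.57, adjusted p = 0.979 by limma, exact permutation p = 0.2). The W term gave 0.33. Without that term, the 95% interval ended just below 1.5-fold on the higher side.

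**Figure D2:**
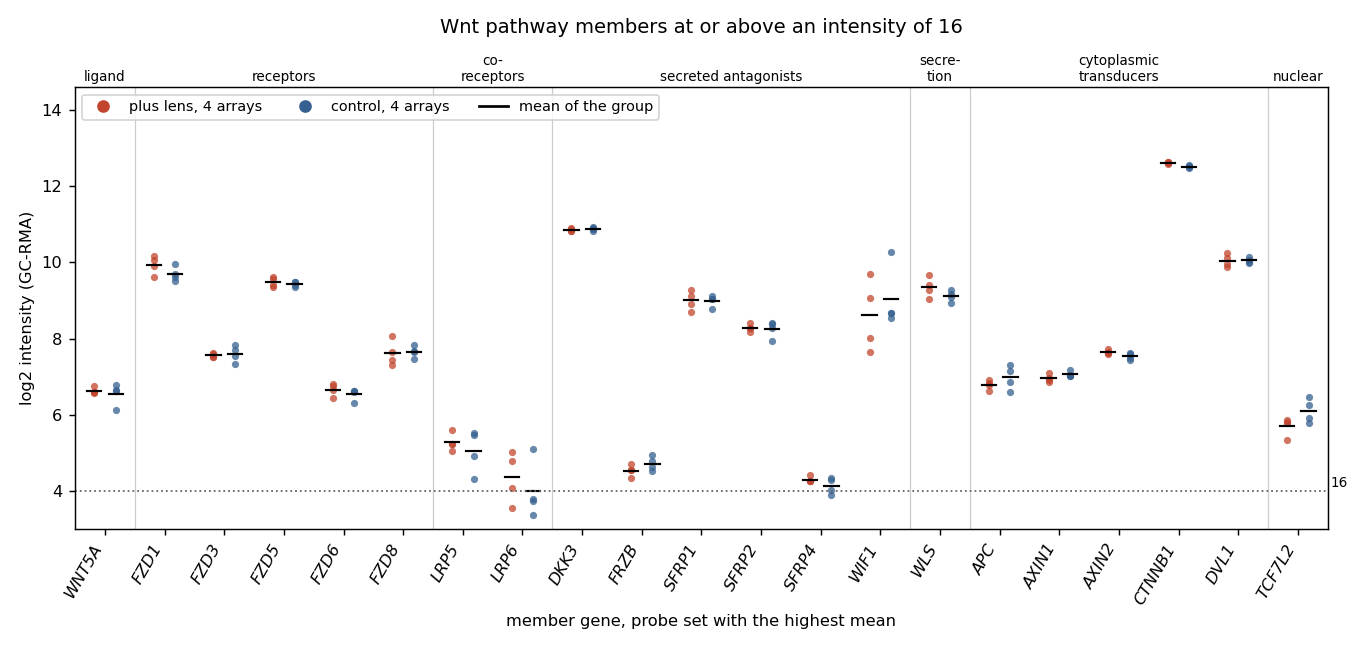
Log2 GC-RMA intensity of each array (points) and the group mean (bars) for the 21 member genes with a probe set at or above an intensity of 16, each by its brightest probe set, plus lens left of control. CTNNB1 and DKK3 show tight groups, WIF1 spreads over more than 2 log2 units, and only CTNNB1 has 4 plus lens arrays all above the 4 control arrays.

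The Frizzled receptors, which receive the ligand at the cell surface, had 10 genes and 22 probe sets, and 5 genes (FZD1, FZD3, FZD5, FZD6 and FZD8) reached an intensity of 16. Receptor probe sets were higher in plus lens chicks in 12 cases and lower in 10, with a median difference of 0.0045. FZD1 (chromosome 2), a receptor that can signal through beta-catenin, had the highest mean intensity and the largest difference of the family. Its brighter probe set measured 10.07, 9.61, 10.18 and 9.90 in plus lens chicks, against 9.50, 9.95, 9.70 and 9.62 in control chicks. Plus lens replicates 1 and 3 lay above all control arrays and replicate 2 below 3 of them. FZD1 averaged 9.94 ± 0.25 in plus lens chicks and 9.69 ± 0.19 in control chicks (SD, n = 4 each), a difference of 0.25 (SE 0.15, 95% interval −0.11 to 0.60, adjusted p = 0.979 by limma, exact permutation p = 0.2), or 0.34 with the W term.

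The dimmer probe set of FZD1 lay just above the level of 16 on average. It measured 5.15, 4.75, 5.37 and 4.68 in plus lens chicks, against 3.86, 4.82, 4.60 and 3.94 in control chicks. As in the brighter set, plus lens replicates 1 and 3 were highest and control replicate 1 lowest, and control replicates 1 and 4 lay below log2 4. The means were 4.99 ± 0.33 in plus lens chicks and 4.30 ± 0.48 in control chicks (SD, n = 4 each), a difference of 0.68 or 1.61-fold (SE 0.27, 95% interval 0.028 to 1.34). The unadjusted limma p was 0.0433, the adjusted p 0.979, and the exact permutation p 0.0857, and the groups overlapped. With the W term the difference was 0.76, and with intensities under 16 raised to 16 it was 0.63.

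FZD5 (chromosome 7), a receptor needed for eye development in frogs and mice, was nearly level in its bright probe set. That set averaged 9.49 ± 0.12 in plus lens chicks and 9.44 ± 0.066 in control chicks (SD, n = 4 each), with a difference of 0.050 (SE 0.066). A second set of the gene, at a mean of 3.39, measured 3.36, 3.38, 3.52 and 3.45 in plus lens chicks, against 3.36, 3.36, 3.35 and 3.36 in control chicks. The 4 control arrays lay within 0.0091 of each other and plus lens replicates 3 and 4 stood above them, so the groups did not overlap by a narrow margin. The exact permutation p of 0.0286, the smallest 70 relabelings allow, only restates this, since every set without overlap has it. The difference was 0.072 (SE 0.035, adjusted p = 0.979 by limma), or 0.074 with the W term, below the intensity at which a value could be read as mRNA.

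FZD3, a receptor of the planar polarity branch, differed by −0.038 and −0.036 in its 2 bright probe sets, and by −0.048 and −0.14 with the W term. FZD6, its closest relative, differed by 0.12 (SE 0.11), and FZD8, a receptor of the developing forebrain in mice, by −0.040 (SE 0.17). The W term gave 0.050 for FZD6 and turned FZD8 to 0.059. None of these had an interval that left out 0 without that term, and none reached an unadjusted p under 0.05 (limma) with it. FZD2, FZD4, FZD7, FZD9 and FZD10 lay below 16 in all probe sets. FZD4 is the receptor for norrin in retinal vessels of mammals, and its 2 sets lay at 2.61 and 2.19 in these retinas.

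LRP5 and LRP6, the co-receptors that pass a Wnt signal on to AXIN, were higher in plus lens chicks in all 6 probe sets (median 0.13), but none reached the unadjusted threshold. Of the 6, 4 lay below 16, near background. LRP5 (chromosome 5), in its brightest set, measured 5.04, 5.23, 5.22 and 5.59 in plus lens chicks, against 4.92, 5.53, 5.47 and 4.31 in control chicks. Control replicate 4 was the lowest of the 8 arrays and the control arrays spread more widely than the plus lens arrays. LRP5 averaged 5.27 ± 0.23 in plus lens chicks and 5.06 ± 0.57 in control chicks (SD, n = 4 each), a difference of 0.21 (SE 0.29, 95% interval −0.48 to 0.90, adjusted p = 0.99 by limma, exact permutation p = 0.571). With the W term the difference was 0.075, and without control replicate 4 it was −0.036.

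LRP6 (chromosome 1) varied widely between chicks. Its brightest probe set measured 5.01, 4.78, 3.55 and 4.08 in plus lens chicks, against 5.11, 3.80, 3.72 and 3.38 in control chicks. Plus lens replicates 1 and 2 and control replicate 1 stood apart above the other arrays, and 4 of the 8 arrays lay below log2 4. The difference was 0.35 (SE 0.48, 95% interval −0.79 to 1.50), or −0.063 with the W term. Its residual SD of 0.716 was matched or exceeded by 1.69% of all probe sets at or above 16.

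**Figure D3:**
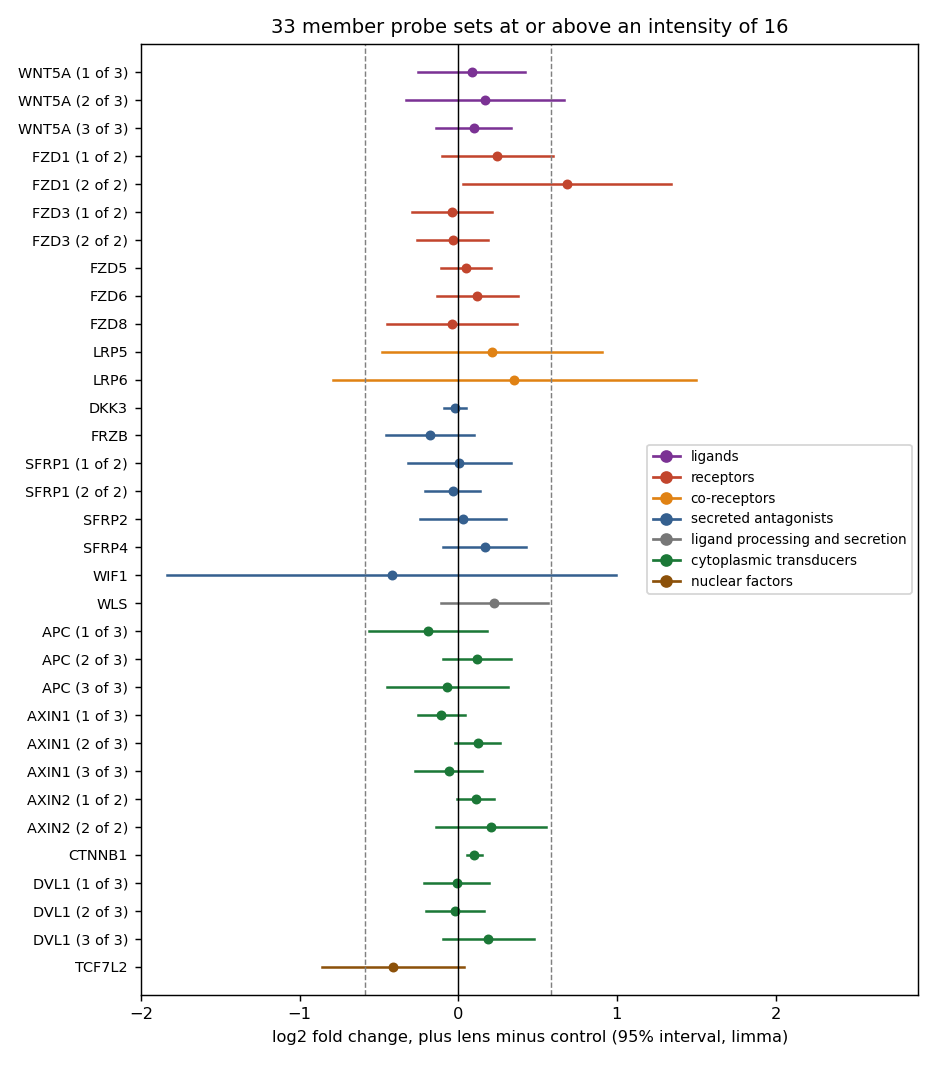
Log2 difference (plus lens minus control, points) with its 95% interval from limma (lines) for the 33 member probe sets at or above an intensity of 16, coloured by role, with dashed lines at 1.5-fold in either direction. The intervals of CTNNB1 and of the dimmer FZD1 set leave out 0, and those of WIF1 and LRP6 are the widest.

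Of the 9 genes for secreted antagonists, 6 reached 16 (DKK3, FRZB, SFRP1, SFRP2, SFRP4 and WIF1). Their probe sets were higher in plus lens chicks in 7 cases and lower in 8, with a median difference of −0.00078. DKK3 (chromosome 5), a divergent relative of the Dickkopf proteins that block LRP5 and LRP6, was the brightest of them. It was also among the least variable probe sets at or above 16. It measured 10.84, 10.88, 10.82 and 10.91 in plus lens chicks, against 10.89, 10.82, 10.93 and 10.91 in control chicks. The arrays of both groups fell within 0.11 of each other and overlapped fully. DKK3 averaged 10.86 ± 0.039 in plus lens chicks and 10.89 ± 0.046 in control chicks (SD, n = 4 each), a difference of −0.023 (SE 0.029, 95% interval −0.092 to 0.046, adjusted p = 0.985 by limma, exact permutation p = 0.514), or −0.045 with the W term. Its residual SD was 0.042, and 98.4% of probe sets at or above 16 had at least this much.

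The SFRP proteins bind Wnt ligands through a domain shared with Frizzled receptors. SFRP1, which acts in retinal neurogenesis and axon growth of the chick embryo, averaged 9.00 ± 0.25 in plus lens chicks and 9.00 ± 0.14 in control chicks in its brightest set (SD, n = 4 each), and its 2 bright sets differed by 0.0075 and −0.036 (0.054 and −0.023 with the W term). SFRP2 differed by 0.030 (SE 0.11) and SFRP4 by 0.17 (SE 0.11), each by 0.12 with the W term. FRZB, another member of this family, measured 4.54, 4.72, 4.34 and 4.54 in plus lens chicks, against 4.78, 4.61, 4.95 and 4.52 in control chicks, at the low end of the brighter genes. The groups overlapped, with control replicate 3 highest and plus lens replicate 3 lowest. Its difference was −0.18 (SE 0.12), and −0.33 with the W term (adjusted p = 0.88 by limma). DKK2, DKK4 and SFRP5 stayed below 16.

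WIF1 (chromosome 1) encodes a secreted protein that binds Wnt ligands directly, and it was the most variable member. It measured 7.65, 9.71, 9.08 and 8.03 in plus lens chicks, against 8.66, 10.27, 8.53 and 8.68 in control chicks. Control replicate 2 and plus lens replicates 2 and 3 stood highest, plus lens replicates 1 and 4 lowest, and the groups overlapped across most of the range. The highest array was 6.12 times the lowest. WIF1 averaged 8.62 ± 0.94 in plus lens chicks and 9.04 ± 0.82 in control chicks (SD, n = 4 each), a difference of −0.42 (SE 0.59, 95% interval −1.84 to 1.00, adjusted p = 0.992 by limma, exact permutation p = 0.514). With the W term the difference was 0.018. The residual SD was 0.886, which 1.01% of all probe sets at or above 16 reached.

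**Figure D4:**
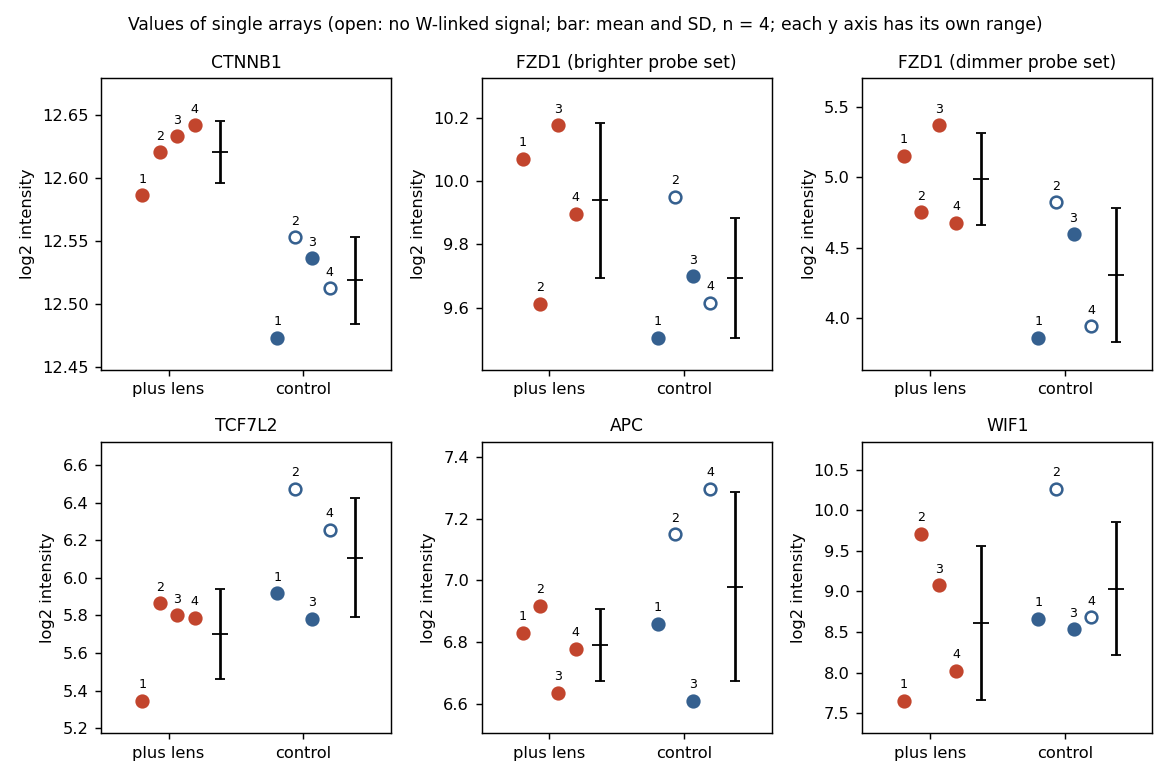
Log2 intensity of each array (points, numbered by replicate) with the mean and SD of each group for CTNNB1, both FZD1 sets, TCF7L2, APC and WIF1, with control replicates 2 and 4, which lack W-linked signal, drawn as open points. CTNNB1 separates the groups within a range of 0.17, whereas WIF1 spreads over 2.61 and TCF7L2 has both open points at the top.

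The 5 genes of the cytoplasmic transducers all reached 16, in 12 of 17 probe sets. Of the 17, 11 were higher in plus lens chicks and 6 lower, with a median difference of 0.043. Among the 12 at or above 16, 6 were higher and 6 lower. CTNNB1 (chromosome 2), beta-catenin, which also links cadherins to actin at cell junctions, had 1 probe set, the brightest of the members. It measured 12.59, 12.62, 12.63 and 12.64 in plus lens chicks, against 12.47, 12.55, 12.54 and 12.51 in control chicks. Every plus lens array lay above every control array, and the lowest plus lens array exceeded the highest control array by 0.033. CTNNB1 averaged 12.62 ± 0.024 in plus lens chicks and 12.52 ± 0.034 in control chicks (SD, n = 4 each), a difference of 0.10 or 1.07-fold (SE 0.021, 95% interval 0.052 to 0.15). The unadjusted limma p was 0.00198, the adjusted p 0.834, and the exact permutation p 0.0286, the smallest possible here. Fitted on probe sets at or above 16 alone, the same difference had an SE of 0.058 and an unadjusted limma p of 0.117. With the W term the difference was 0.12 (adjusted p = 0.843 by limma). The residual SD was 0.030, and 99.3% of probe sets at or above 16 had at least this much.

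AXIN2 (chromosome 18), a scaffold of the destruction complex that is itself a common target of beta-catenin, averaged 7.65 ± 0.063 in plus lens chicks and 7.54 ± 0.083 in control chicks in its brighter set (SD, n = 4 each). That set differed by 0.11 (SE 0.050, adjusted p = 0.979 by limma, exact permutation p = 0.0857) and the other by 0.21 (SE 0.15). Both were smaller with the W term, at 0.041 and 0.073. The probe sets of AXIN1, the other scaffold of that complex, did not run one way, and the 3 bright ones differed by −0.11, 0.12 and −0.060. With the W term the last of these turned, and they were −0.15, 0.12 and 0.088. DVL1, which relays the signal from Frizzled, differed by −0.0091, −0.018 and 0.19 in its bright sets. A dim DVL1 set measured 2.69, 2.83, 2.69 and 2.67 in plus lens chicks, against 2.66, 2.66, 2.65 and 2.66 in control chicks. The groups did not overlap, which fixes the exact permutation p at 0.0286. The control arrays lay within 0.011, and the size of the difference rested mainly on plus lens replicate 2, without which it was 0.021. The difference was 0.057 (SE 0.035, adjusted p = 0.979 by limma), or 0.060 with the W term, near background.

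APC, the scaffold that presents beta-catenin for degradation, lies on chromosome Z, of which male birds carry a pair and females a single copy. Its brightest set measured 6.83, 6.92, 6.64 and 6.78 in plus lens chicks, against 6.86, 7.15, 6.61 and 7.30 in control chicks. Control replicates 2 and 4, which lack W-linked signal, were the highest arrays. APC averaged 6.79 ± 0.12 in plus lens chicks and 6.98 ± 0.31 in control chicks (SD, n = 4 each), a difference of −0.19 (SE 0.16), which was 0.056 with the W term. Its other sets differed by 0.12, −0.068 and 0.080, and by 0.22, −0.11 and 0.22 with the W term.

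Of the nuclear factors, only TCF7L2 (chromosome 6), a DNA-binding partner of beta-catenin, reached 16, in 1 of its 5 probe sets. It measured 5.34, 5.86, 5.80 and 5.79 in plus lens chicks, against 5.92, 6.47, 5.78 and 6.26 in control chicks. Control replicates 2 and 4 were the highest arrays and plus lens replicate 1 the lowest, and control replicate 3 lay among the plus lens arrays. TCF7L2 averaged 5.70 ± 0.24 in plus lens chicks and 6.11 ± 0.32 in control chicks (SD, n = 4 each), a difference of −0.41 (SE 0.19, 95% interval −0.86 to 0.039, adjusted p = 0.979 by limma, exact permutation p = 0.114). The W term brought this to −0.15. The other TCF7L2 sets, all below 16, differed by 0.0046, 0.057, −0.022 and 0.0014. The bright set is named as the opposite orientation of a set that lay at 2.78 on average, and no source used here says which strand it reads. LEF1 and TCF7L1, the other DNA-binding partners measured, lay below 16 in every set.

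For the wider pathway, 118 genes were listed and 106 were measured, each by its brightest probe set. They included AXIN2 and LEF1 again, as known targets of beta-catenin. None was called, 4 were higher and 2 lower at an unadjusted p under 0.05, where 6.44% of all genes passed that level (3.27% higher and 3.17% lower). Their median difference was 0.0026, against 0.0013 over all genes, with 59 higher and 47 lower. An intensity of 16 was reached by 66 of the 106, so these counts include values near background. Among 23 measured targets of beta-catenin, 14 were higher and 9 lower, with a median of 0.011, and 14 of the 23 reached 16.

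ID2, a target that inhibits basic helix-loop-helix factors, had the largest difference of these 6. It measured 10.95, 10.60, 11.04 and 10.84 in plus lens chicks, against 10.37, 10.42, 10.24 and 10.71 in control chicks. Plus lens replicates 1, 3 and 4 lay above every control array, while replicate 2 lay below control replicate 4. The difference was 0.42 (SE 0.13, adjusted p = 0.979 by limma, exact permutation p = 0.0571), or 0.55 with the W term. A dimmer ID2 set differed by 1.35 (SE 0.47), with the means 6.08 ± 0.64 in plus lens chicks and 4.74 ± 0.77 in control chicks (SD, n = 4 each). Its adjusted p was 0.979 by limma and its exact permutation p 0.0857, and the W term gave 2.01. Control replicates 1 and 3 lay near log2 4 in that set, and control replicates 2 and 4 above plus lens replicate 4.

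The other 5 had smaller differences, each with an adjusted p of 0.979 by limma. PPARD, a nuclear receptor listed as a target, differed by −0.24 (SE 0.089). FBXW11, part of the ubiquitin ligase that degrades beta-catenin, differed by 0.28 (SE 0.096) in one set and by 0.019 in another. CTBP1, a corepressor that can act with TCF factors, differed by 0.20 (SE 0.080) in its brightest set and by 0.24 (SE 0.064) in the other. All 4 plus lens arrays of that other set, at 10.13 to 10.29, lay above the control arrays, at 9.84 to 10.10, with an adjusted p of 0.964 by limma. Of all probe sets, 1.77% had no overlap and were higher in plus lens chicks. TSPAN12, which assists FZD4 in norrin signaling in mammals, differed by 0.15 (SE 0.057), and CAMK2G, a kinase of the calcium branch, by −0.14 (SE 0.049). The other CAMK2G sets differed by 0.019 and −0.17. LGR4, one of the listed other receptors, did not reach the unadjusted level, but its groups did not overlap. No other of the 106 measured genes lacked overlap in its brightest set, where 2.86% of all probe sets did. LGR4 was named after its values were seen. It was higher in plus lens chicks by 0.16 (SE 0.068, adjusted p = 0.979 by limma).

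The 14 other measured Wnt inhibitors held no gene past the unadjusted level without the W term, with 10 higher and 4 lower. The brightest of them were DACT2, which acts on Dishevelled, and IGFBP4, a binding protein of insulin-like growth factors that can also bind Frizzled and LRP6, at 0.26 and −0.18, and at 0.43 and −0.16 with the W term. Of 24 measured genes of the planar polarity and calcium branches, 11 were higher and 13 lower, with a median of −0.0084. Of 30 other cytoplasmic and nuclear parts of the beta-catenin pathway, 15 were higher and 15 lower, and of 19 other receptors and ligands 13 were higher and 6 lower. Only 6 of the 14 inhibitors and 7 of the 19 receptors and ligands reached 16. The polarity and calcium branches had 17 of 24 genes at that level, and the cytoplasmic and nuclear parts 24 of 30.

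With the W term, 3 member probe sets reached an unadjusted p under 0.05, where 3.69% of all probe sets did (1.63% higher and 2.05% lower). CTNNB1 was higher, and FRZB and WNT5B were lower, and none was called. With the 2 arrays left out, 15 members had no overlap between the groups, 13 higher and 2 lower, where 13.8% of all probe sets did not overlap. That share was not split by direction, and many of the 15 were dim sets near background, such as those of WNT3, DKK4 and TCF7L1. In the wider pathway, 5 genes reached an unadjusted p under 0.05 with the W term. All 5 were higher in plus lens chicks, where 5.19% of all genes passed (2.23% higher and 2.96% lower). They were ID2 and CTBP1, which also passed without it, and DACT2, CTBP2, another corepressor of that family, and CSNK1A1, a kinase of the destruction complex. Among the members, the 3 differences of largest size were those of the dimmer FZD1 set, WIF1 and the bright TCF7L2 set. The W term left FZD1 at 0.76, with a wider SE of 0.36, and brought WIF1 and TCF7L2 to 0.018 and −0.15. For WIF1, control replicate 2 lay at 10.27, whereas control replicate 4, which also lacks W-linked signal, lay at 8.68, near control replicates 1 and 3. Without control replicate 2 alone the WIF1 difference was −0.0098. Both arrays without W-linked signal are controls, and the part of that signal in these differences was not tested beyond this term.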

How the data were processed

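Retinal RNA of 4 plus lens and 4 control chicks was hybridised to 1 Affymetrix Chicken Genome array per chick. The authors normalised the scans with GC-RMA (version not given in the sources used here) and deposited a linear intensity for each probe set and array. The deposited experiment records gave station and scan order. The log2 of these intensities was used with no further scaling. The table held 38535 probe sets, from which 96 Affymetrix control sets were removed. Gene symbols came from the platform annotation, and chromosomes from RefSeq (GRCg7b). For all 97 member probe sets the current symbol was the platform symbol.

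Groups were compared with limma 3.58.1 in R 4.3.3, with Benjamini-Hochberg adjustment across the remaining 38439, and called at an adjusted p under 0.06 and 1.5-fold. Standard errors and 95% intervals are limma's. Exact two-sided permutation tests used 70 relabelings, whose smallest p is 0.0286. Every probe set without overlap between the groups has that p, so there it adds nothing to the lack of overlap. Replicates are separate chicks, so p-values cover the spread between chicks, and 8 arrays limit the precision. Members and gene lists were chosen with earlier results of these data known. Array values are given for members with an unadjusted p under 0.05 or no overlap and for the brightest gene of each role. Those of LRP6, FRZB, WIF1, APC and ID2, and the second probe sets of ID2 and CTBP1, were added after their values were seen. CTBP2, CSNK1A1 and LGR4 were also named after their values were seen. The steps were tested on simulated data.

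Alternatives were the methods' t-test, intensity trend with robust eBayes, array weights, quantile normalisation, median centring, a filter and a floor at an intensity of 16, the replicate block, the W term, leaving out the 2 arrays without W-linked signal, 1 value per gene, and leaving out each array in turn.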

Additional observations from a re-analysis of the deposited data

Results flagged for a closer look

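Within a group of 4 arrays, a single array stood apart by Dixon's ratio at its 95% critical value in 4 of 34 groups examined, and chance marks about 1 in 20 such groups. In plus lens chicks, WNT5A lay at 6.75 in replicate 4 and at 6.58 to 6.59 in the other arrays, and TCF7L2 lay at 5.34 in replicate 1 and at 5.79 to 5.86 in the others. In control chicks, WIF1 lay at 10.27 in replicate 2, which lacks W-linked signal, and at 8.53 to 8.68 in the others. The dim probe set of DVL1 lay at 2.65 in control replicate 3 and at 2.66 in the others, a distance that means little near background. Without control replicate 2 the WIF1 difference was −0.0098, in place of −0.42. Without plus lens replicate 1 the TCF7L2 difference was −0.29, in place of −0.41, and without plus lens replicate 4 that of WNT5A was 0.044, in place of 0.086.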

How the results depend on the processing

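No member was called under any alternative, and the direction of 14 of the 17 named probe sets held wherever a difference was left. The dim sets of FZD5 and DVL1, counted among these 14, had a difference of 0 with the floor at 16, and the filter removed them. The number of members at an unadjusted p under 0.05 (2) was 1 with the methods' t-test (3.63% of all probe sets passed), with quantile normalisation (4.65%) and with the floor at 16 (3.33%), and 4 with array weights (5.88%). With the filter it stayed 2 (7.44% of all), but these were FZD1, higher, and TCF7L2, lower, and CTNNB1 had an unadjusted limma p of 0.117. CTNNB1 was below 0.05 in all other alternatives run. With an array left out the number was 1 (without plus lens replicate 3, 4.45%) to 4 (without control replicate 3, 4.58%). Numbers without overlap (3) were 9 after quantile normalisation (6.70%), 1 with median centring (3.0%), the filter (4.47%) or the floor (2.08%), and 15 without the 2 arrays that lack W-linked signal (13.8%). With an array left out they were 3 to 9, the 9 without plus lens replicate 2 (5.88%), 8 without plus lens replicate 4 (6.29%), 6 without control replicate 1 (5.92%), and 5 without control replicate 2 (4.91%) or 4 (5.39%). The member median (0.0028) was −0.0089 with median centring, 0.050 with the filter, and 0.00047 to 0.0049 with an array left out. The 6 wider pathway genes became 3 (without plus lens replicate 4) to 7 with an array left out, and 4 (the filter) to 8 (trend with robust eBayes, and the block) otherwise. WIF1 was 0.018 with the W term or without those arrays. With an array left out, WNT5A was −0.053 (without control replicate 1) to 0.16 and LRP5 −0.036 (without control replicate 4) to 0.37. Arrays with the same replicate number had the same fluidics module number, on different stations. Their deviations correlated by only −0.0085 to 0.14, and 2 of 8 arrays correlated best with their own number, which does not settle whether chicks were paired. With the number as a block, 4 members (5.53% of all) and 8 wider pathway genes passed the unadjusted level and 0 members were called. Arrays have no read depth. Dim members, 64 of 97, lie near background, so differences of their mRNA could hardly be seen.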
